A study of Mus musculus with 7 samples.

Results

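Genes that carry out or tune Notch signaling were examined in gentamicin-damaged mouse utricles with and without added Fos. The 10 members were taken from a list of Notch targets, fringes and modulators and make up 10 of the 32285 genes in the files. The rule that lists them names genes and uses no measured value, but it was drawn up with earlier results of these data known. They comprise the target genes Hes1, Hey1, Hey2, Heyl and Nrarp, the fringe genes Lfng, Mfng and Rfng, and the modulators Dtx1 and Numb. Utricles of WT mice (C57BL/6J by the methods) were explanted at P2, cultured without serum and damaged with 2 mM gentamicin for 24 h, and 12 utricles were pooled per library. The Gent+Fos OE group (n = 4 libraries) also received AAV-PHP.eB Fos, a vector in which a CMV promoter drives mouse Fos, for 48 h. The Gent group (n = 3) carries gentamicin alone in its labels, although the names of its deposited counts hold letters that also stand for shRNA, so whether it received a virus is not settled. The study describes this comparison as one of explants at day 5 post-injury. Each library is whole explant tissue, so fewer cells of a type and less RNA per cell cannot be told apart.

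In Notch signaling, a ligand of the Delta or Jagged family on one cell binds a Notch receptor on its neighbour. Secretase cleavage then frees the receptor's intracellular domain, which joins the DNA-binding protein RBPJ and switches on repressors of the Hes and Hey families. In the inner ear these repressors hold back Atoh1 in supporting cells, the cells that surround hair cells, and so keep them from becoming hair cells. Fringe enzymes add sugars to the receptor and change which ligands it answers to, Nrarp and Numb dampen the signal, and Dtx1 is a ubiquitin ligase that acts on Notch. Because Notch1, Notch3 and Notch4 had a higher level in every Gent+Fos OE library than in any Gent library, the comparison asked whether RNA of the targets was higher as well.

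No member passed the test of the difference between the groups, and the 95% confidence intervals of their log2 fold changes (Gent+Fos OE over Gent) reached from -0.79, for Mfng, to 0.69, for Nrarp. All 10 passed the filter on low counts, and edgeR's quasi-likelihood test called 0 of them (adjusted p under 0.01, log2 fold change beyond 0.25 in either direction), limits that 0.414% of the 17155 genes tested passed. Only Mfng had an unadjusted p under 0.05, and DESeq2 also called 0 of the 10 (3.17% of its genes) and gave Mfng alone an unadjusted p under 0.05. The values of the groups overlapped for 10 of 10 members, whereas 23.4% of all tested genes had groups that did not overlap. For 4 members the range of Gent+Fos OE lay wholly inside that of Gent. The median log2 fold change of the members was -0.05, against -0.00075 for all tested genes, with 3 members above 0 and 7 below. The permutation tests below compare mean log2 CPM over the 35 ways of splitting the libraries into 4 and 3, and cannot give a p under 0.0286. CPM is the count of a gene scaled to a library of 1000000 counts, after normalization by TMM (trimmed mean of M-values).

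**Figure D1:**
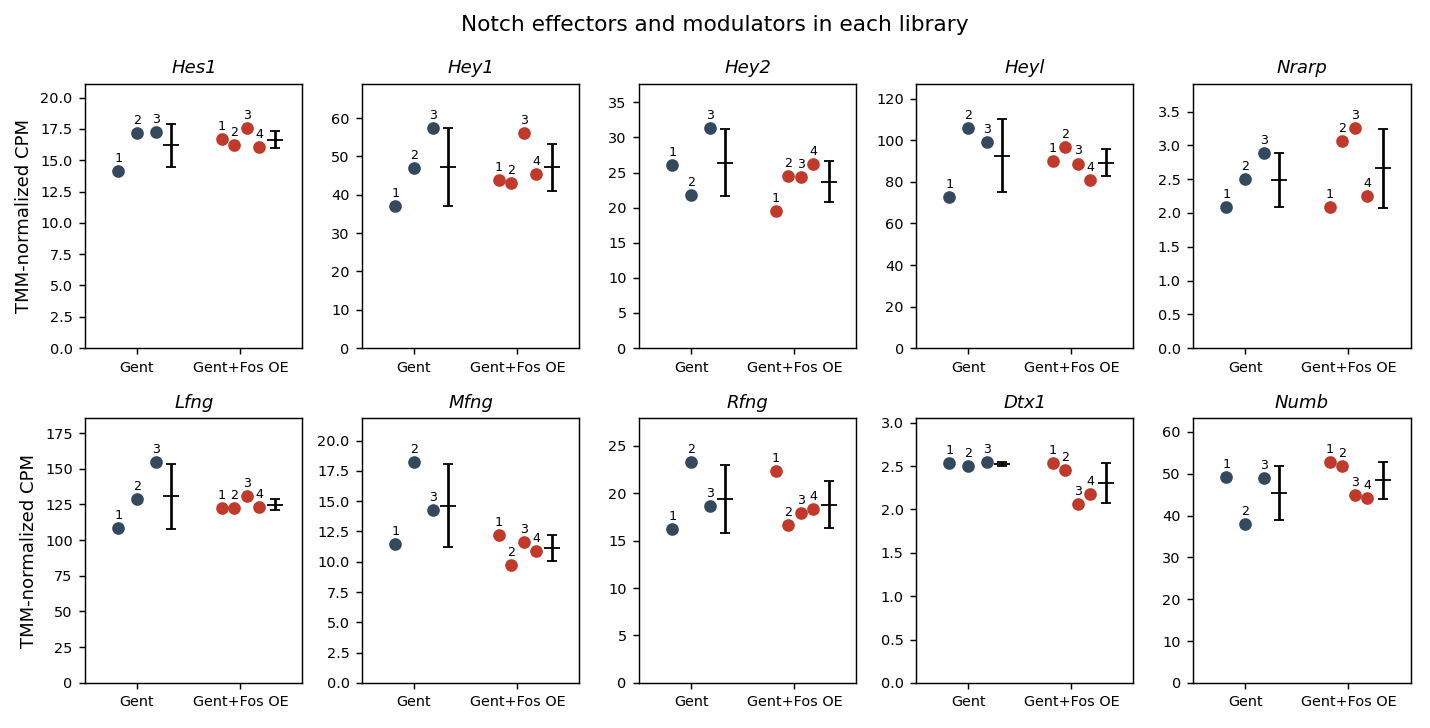
TMM-normalized CPM of each of the 10 genes in the 3 Gent libraries (dark) and 4 Gent+Fos OE libraries (red), with the replicate number at each point, the mean as a dash and bars of 1 SD. The groups overlap in every panel, and for Hes1, Hey1, Heyl, Lfng and Rfng the lowest point of all 7 is Gent replicate 1.

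Library depth ran from 27879889 to 32135217 counts in Gent+Fos OE and from 29892816 to 34335214 in Gent. Fos itself, the gene that was added, had 149 to 167 CPM in Gent+Fos OE and 34.6 to 40.6 CPM in Gent, which is 2.01 on the log2 scale (standard error 0.13, edgeR adjusted p = 0.000142). Across genes, the deviations of each library from the library mean were set against gene length. Spearman's rho was 0.124 to 0.325 in the 4 Gent+Fos OE libraries, and 0.153, -0.496 and -0.221 in Gent replicates 1 to 3. Gent replicate 2 thus lay furthest from 0, and the trend also differed between the groups. Markers of the labelled tissue were present in every library. The 13 hair cell markers summed to 1020 to 1219 CPM in Gent+Fos OE and 840 to 1118 CPM in Gent. The 12 supporting cell markers summed to 3205 to 4407 CPM and 2543 to 2971 CPM, and 5 of them were higher and 1 lower at an unadjusted p under 0.05, with Otog, a protein of the otolithic membrane, called (log2 fold change 1.25, edgeR adjusted p = 0.00851). Otog stayed past the threshold in 1 of the 7 fits that each left out 1 library, the one without Gent replicate 2, and its edgeR adjusted p reached 0.0415 without Gent+Fos OE replicate 1.

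Hes1, the repressor that acts as a general Notch effector, lies on chromosome 16 of mm10 from 30064384 to 30067796 (ENSMUSG00000022528). It had 16.7, 16.2, 17.6 and 16.1 CPM in Gent+Fos OE replicates 1 to 4 and 14.2, 17.2 and 17.2 CPM in Gent replicates 1 to 3. The 4 treated libraries lay close together, within or just above the control values, and only Gent replicate 1 was lower than all of them. For Hes1 the log2 fold change was 0.04 (standard error 0.14, 95% confidence interval -0.26 to 0.34, edgeR adjusted p = 0.873; exact permutation test, p = 0.714).

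Hey1 and Hey2 are repressors of the Hairy-related family that respond to Notch in supporting cells, vessels and other tissues. Hey1 (ENSMUSG00000040289, chromosome 3, 8663359 to 8667256) had 43.9, 43.1, 56.2 and 45.3 CPM in Gent+Fos OE and 37.1, 47.1 and 57.5 CPM in Gent, with the lowest and the highest value both in Gent. Its log2 fold change was -0.00297 (standard error 0.17, 95% confidence interval -0.37 to 0.36, edgeR adjusted p = 0.993; exact permutation test, p = 1). Hey2 (ENSMUSG00000019789, chromosome 10, 30832359 to 30842801) had 19.5, 24.5, 24.4 and 26.3 CPM in Gent+Fos OE and 26.1, 21.8 and 31.4 CPM in Gent. For Hey2 the lowest library was Gent+Fos OE replicate 1 and the highest was Gent replicate 3, and the log2 fold change was -0.16 (standard error 0.16, 95% confidence interval -0.52 to 0.20, edgeR adjusted p = 0.557; exact permutation test, p = 0.4).

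Heyl, the Hey relative known from vascular mural cells and also a Notch target elsewhere, lies on chromosome 4 from 123233556 to 123249875 (ENSMUSG00000032744). Its values were 90.0, 97.0, 88.9 and 81.1 CPM in Gent+Fos OE and 72.9, 106 and 99.1 CPM in Gent. The treated libraries thus lay between the lowest and the highest control. Heyl differed by -0.05 on the log2 scale (standard error 0.15, 95% confidence interval -0.38 to 0.27, edgeR adjusted p = 0.84; exact permutation test, p = 0.8). Markers of vessel cells gave no common direction: of 9 tested endothelial genes 1 had an unadjusted p under 0.05, with summed levels of 135 to 184 CPM in Gent+Fos OE and 150 to 214 CPM in Gent, and Emcn, an endothelial sialomucin, made up most of each sum at 88.2 to 176 CPM. That 1 gene was Cdh5, an endothelial cadherin, at 11.1 to 18.5 CPM in Gent+Fos OE and 7.45 to 10.8 CPM in Gent (log2 fold change 0.77). The list of 12 endothelial genes had 3 too low to be tested, Cldn5, Sox17 and Robo4. Mural cell genes summed to 287 to 467 CPM in Gent+Fos OE and 489 to 773 CPM in Gent, with 1 of 10 higher and 3 lower at an unadjusted p under 0.05. The 3 lower ones were the contractile genes Acta2 (130 to 262 CPM against 321 to 587 CPM, edgeR adjusted p = 0.025), Cnn1 (adjusted p = 0.017) and Tagln (adjusted p = 0.141). The higher one was Abcc9 (log2 fold change 0.69). Acta2 was the most abundant of the 10 in every library. Pdgfrb, the next, had 129 to 168 CPM and 137 to 195 CPM, and its groups overlapped. Of the 10 genes, 4 lay above 0 and 6 below, with a median of -0.04. The part of vessel cells in the values of the Hey genes was not tested.

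Nrarp, a target that feeds back on Notch by helping to remove the intracellular domain, is 1 exon on chromosome 2 from 25180758 to 25183339 (ENSMUSG00000078202). It had 2.08, 3.06, 3.26 and 2.25 CPM in Gent+Fos OE and 2.09, 2.5 and 2.89 CPM in Gent. Treated libraries were found at both ends of this range. Its log2 fold change was 0.10 (standard error 0.27, 95% confidence interval -0.50 to 0.69, edgeR adjusted p = 0.847; exact permutation test, p = 0.743), the widest interval among the members. A share of 79.4% of its exonic bases is also annotated as Gm38287, and reads in shared bases were not counted. The value of Nrarp therefore rests on 531 bases and on 61 to 103 counts per library. All 2051 exonic bases of Gm38287 are shared with Nrarp, so its 0 counts in all 7 libraries follow from the way of counting.

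The canonical RBPJ sequence TGGGAA was looked for on both strands of the RefSeq promoter windows (GRCm38.p6, the build of the files, 250 bases before to 50 after each start). Such windows were at hand for 6 of the 10 members, Hey2, Nrarp, Lfng, Rfng, Dtx1 and Numb. Of their 8 windows, those of Hey2 and Lfng held the sequence, each at 2 places, while 25.6% of all 32851 windows held it at least once. The AP-1 sequence TGANTCA, to which Fos and Jun dimers bind, was in 0 of the 8 and in 7.81% of all windows. The matches are letters and not shown binding sites. They are given because Hey2 and Lfng are a target and a fringe whose RNA can be read beside them, in the direction of transcription and with the match in capitals, which reads TTCCCA where it lies on the other strand.
Hey2 at -207 (chr10:30842973-30843002, minus strand): tgcgcggtggcaTTCCCAcgcctctgccaa
Hey2 at -3 (chr10:30842769-30842798, minus strand): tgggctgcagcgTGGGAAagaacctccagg
Lfng at -135 (chr5:140607194-140607223, plus strand): ccagctgggtggTTCCCAgccccttgtccg
Lfng at -108 (chr5:140607221-140607250, plus strand): ccgtatcccacgTGGGAAggagagatctcc

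Lfng, the fringe known to mark supporting cells of the sensory patches, lies on chromosome 5 from 140607320 to 140615545 (ENSMUSG00000029570). It had 123, 123, 131 and 123 CPM in Gent+Fos OE and 108, 129 and 154 CPM in Gent. The treated libraries spanned less than the controls, of which replicate 1 lay below them, replicate 3 above them and replicate 2 among them. Lfng differed by -0.07 on the log2 scale (standard error 0.14, 95% confidence interval -0.37 to 0.24, edgeR adjusted p = 0.787; exact permutation test, p = 0.657). The summed supporting cell markers were higher with Fos in the same libraries, but without Otog (830 to 1354 CPM in Gent+Fos OE, 431 to 466 CPM in Gent) the other 11 summed to 2374 to 3053 CPM and 2098 to 2505 CPM, and the groups overlapped. Of these 11, Otogl, Tecta, Sox9 and Cdh1 were higher at an unadjusted p under 0.05, with log2 fold changes of 0.79, 0.58, 0.42 and 0.77, and Fabp7 was lower, at -0.96. The part of these cells in the values of Lfng, Hes1 and Hey1 was not tested.

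Mfng, a second fringe, lies on chromosome 15 from 78755882 to 78773475 (ENSMUSG00000018169). Its difference was the largest of the members with the counts as deposited and edgeR, but not under every alternative. Hey2 differed by more with limma-voom with sample quality weights (-0.34 against -0.31) and without Gent replicate 2 (-0.28 against -0.22). The values of Mfng were 12.2, 9.77, 11.6 and 10.9 CPM in Gent+Fos OE and 11.4, 18.2 and 14.3 CPM in Gent. Gent replicates 2 and 3 lay above all treated libraries, and Gent replicate 1 lay among them. For Mfng the log2 fold change was -0.40 (standard error 0.18, 95% confidence interval -0.79 to -0.00219, unadjusted p = 0.0489, edgeR adjusted p = 0.203; exact permutation test, p = 0.114), and 13.4% of all genes tested were lower at an unadjusted p under 0.05. The value was -0.22 without Gent replicate 2 and -0.55 without Gent replicate 1 (edgeR adjusted p = 0.0631). In the same libraries, 6 of 9 macrophage markers were lower at an unadjusted p under 0.05, with a summed level of 920 to 1541 CPM in Gent+Fos OE and 1696 to 2107 CPM in Gent, and 6 of 7 melanocyte markers were lower, with sums of 46.8 to 52.4 CPM and 90.5 to 129 CPM. Their part in the value of Mfng was not tested.

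Rfng, the third fringe, on chromosome 11 from 120780746 to 120784207 (ENSMUSG00000025158), had 22.3, 16.6, 17.9 and 18.3 CPM in Gent+Fos OE and 16.2, 23.2 and 18.6 CPM in Gent. Each group held 1 library above 22 CPM and otherwise lay below 19 CPM, and the log2 fold change was -0.04 (standard error 0.17, 95% confidence interval -0.41 to 0.32, edgeR adjusted p = 0.894; exact permutation test, p = 0.743).

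Dtx1, the ubiquitin ligase, on chromosome 5 from 120680202 to 120711927 (ENSMUSG00000029603), had 2.54, 2.45, 2.06 and 2.17 CPM in Gent+Fos OE and 2.53, 2.5 and 2.54 CPM in Gent. Of the treated libraries only replicate 1 reached the controls. The log2 fold change of Dtx1 was -0.13 (standard error 0.24, 95% confidence interval -0.65 to 0.39, edgeR adjusted p = 0.751; exact permutation test, p = 0.229). Numb, the adaptor that hands Notch to endocytosis and is passed to 1 daughter in asymmetric divisions, lies on chromosome 12 from 83794034 to 83921934 (ENSMUSG00000021224). It had 52.7, 51.8, 45.0 and 44.1 CPM in Gent+Fos OE and 49.2, 37.9 and 49.0 CPM in Gent, with the lowest value in Gent replicate 2. The log2 fold change of Numb was 0.09 (standard error 0.14, 95% confidence interval -0.21 to 0.40, edgeR adjusted p = 0.696; exact permutation test, p = 0.514), and 4.24% of its exonic bases overlap Gm46367.

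Levels can be set side by side between genes once CPM is divided by exon length. In Gent, Lfng was highest at 52.1 ± 9.21 CPM per kb (SD, n = 3) and did not overlap the next gene in any library. Heyl at 18.1 ± 3.42, Hey1 at 14.5 ± 3.12 and Numb at 11.6 ± 1.65 CPM per kb followed, each overlapping its neighbour in that order. Hes1 at 7.94 ± 0.854, Rfng at 7.78 ± 1.44, Hey2 at 5.75 ± 1.05 and Mfng at 5.16 ± 1.2 CPM per kb formed a further run of overlapping neighbours, below Numb in every library. Nrarp at 0.965 CPM per kb and Dtx1 at 0.479 CPM per kb came last, although Nrarp reached 4.69 CPM per kb when only its unshared bases were taken. With Fos, the mean levels were 49.8 CPM per kb for Lfng, 17.5 for Heyl, 14.4 for Hey1, 12.4 for Numb and 8.17 for Hes1, in the same order.

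The 4 receptors were read in the same libraries. Notch1 had 163 to 248 CPM in Gent+Fos OE and 73.5 to 127 CPM in Gent, Notch3 had 80.1 to 119 CPM against 50.5 to 58.3 CPM, and Notch4 had 6.58 to 8.70 CPM against 4.16 to 5.00 CPM, with no overlap for these 3 genes. Notch2 had 130 to 158 CPM and 61.5 to 166 CPM, and the groups overlapped. The log2 fold changes were 0.92 for Notch1 (95% confidence interval 0.45 to 1.40, edgeR adjusted p = 0.0597), 0.32 for Notch2 (-0.26 to 0.90, adjusted p = 0.456), 0.89 for Notch3 (0.53 to 1.25, adjusted p = 0.0247) and 0.77 for Notch4 (0.37 to 1.18, adjusted p = 0.0612). The value of Notch2 was 0.71 without Gent replicate 1 (edgeR adjusted p = 0.0549) and 0.02 without Gent replicate 2. The endothelial marker Cdh5 differed by 0.77, as Notch4 did. Of the 9 tested endothelial genes, however, 3 lay above 0 and 6 below, with a median of -0.09. The part of endothelial cells in the value of Notch4 was not tested. With the filter on low counts none of these receptors passed edgeR's limits, and without it edgeR called Notch3 (log2 fold change 0.89, adjusted p = 0.00632) and 0.819% of genes. DESeq2 and limma-voom with sample quality weights, which called 3.17% and 5.6% of genes, both called Notch1, Notch3 and Notch4. The upper ends of the intervals of Hes1, Hey1, Hey2 and Heyl, at 0.20 to 0.36, lay below the lower ends of those 3 receptors, and that of Nrarp, at 0.69, did not.

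**Figure D2:**
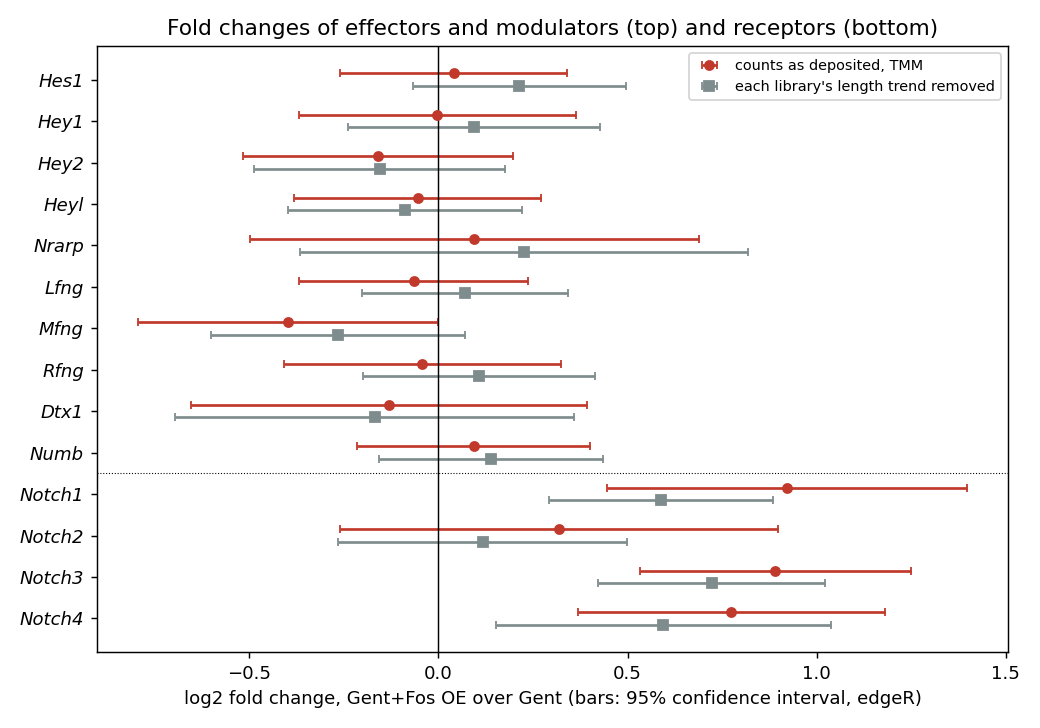
Log2 fold changes (Gent+Fos OE over Gent, x axis) of the 10 effectors and modulators and, below the dotted line, the 4 receptors, with 95% confidence intervals from edgeR. Red points use TMM alone and grey squares come after removal of the length trend of each library, and Mfng moves from -0.40 to -0.27, Hes1 from 0.04 to 0.21 and Notch1 from 0.92 to 0.59.

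The difference itself was compared as the log2 ratio of a target to a receptor within each library, which does not depend on the scaling of libraries. Of the 20 ratios (5 targets, 4 receptors), 13 were lower in Gent+Fos OE with no overlap between the groups. So were the ratios of 56.7% to 69.1% of all genes to Notch1, Notch3 and Notch4, and of 6.93% to Notch2. The ratio of Hes1 to Notch1 was -3.56 ± 0.32 (SD, n = 4) in Gent+Fos OE and -2.67 ± 0.54 (SD, n = 3) in Gent, a difference of -0.89 on the log2 scale (exact permutation test, p = 0.0286, and 0.0571 after Benjamini-Hochberg adjustment over the 20). Against Notch3 and Notch4, Hes1 differed by -0.83 and -0.72, Heyl by -0.91 and -0.80, and Hey2 by -1.02 and -0.91. No ratio had an adjusted p under 0.0571, which is the lowest these 20 gave.

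Most genes showed such ratios to the same receptors. The ratio to Notch1 was lower with no overlap for 3 of the 5 targets and for 69.1% of all genes tested, that to Notch3 for 5 of 5 targets and 66% of genes, and that to Notch4 for 5 of 5 and 56.7%. Against Notch2 it was so for 0 of 5 targets and 6.93% of genes, with adjusted p-values of 0.25 to 0.543 for the 5 targets (exact permutation test with Benjamini-Hochberg adjustment). The shares of targets were thus near those of all genes for Notch1 and Notch2, and the median difference over all genes was -0.93 for Notch1, -0.87 for Notch3 and -0.75 for Notch4, close to the values of the targets.

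**Figure D3:**
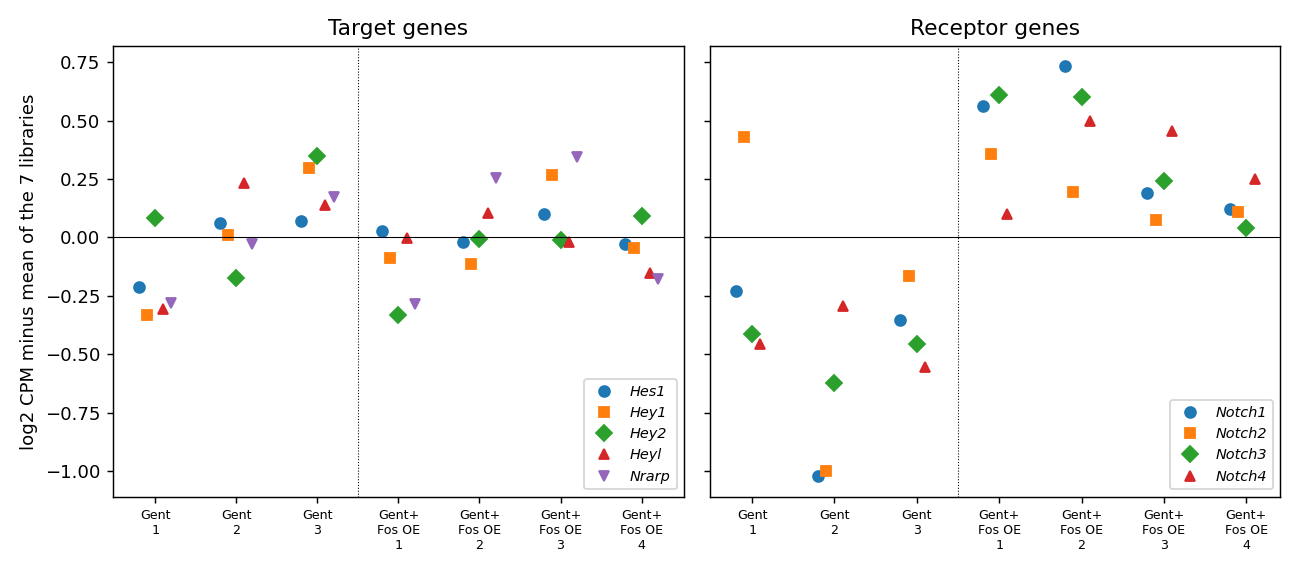
Log2 CPM of 5 target genes (left) and 4 receptor genes (right) in each of the 7 libraries, as the difference from the mean of the libraries. Targets lie on both sides of 0 in both groups, whereas Notch1, Notch3 and Notch4 lie below 0 in the 3 Gent libraries and above 0 in the 4 Gent+Fos OE libraries.

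The library with the lowest Gent value differed between members and receptors, with Hey2, Dtx1 and Numb as exceptions. Gent replicate 1 held the lowest Gent value of 7 of the 10 members and the lowest of all 7 libraries for 5 of them (Hes1, Hey1, Heyl, Lfng and Rfng). Hey2, Dtx1 and Numb had their lowest Gent value in replicate 2, as did Notch1, Notch2 and Notch3, and Notch4 had it in replicate 3. Without Gent replicate 1 the log2 fold changes were -0.05 for Hes1, -0.15 for Hey1, -0.20 for Heyl and -0.18 for Lfng, and 20 of the 20 ratios were lower with no overlap, as were those of 79.5% of all genes to Notch1, 62% to Notch2, 71.7% to Notch3 and 61% to Notch4.

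Members and receptors also differed in length. The members have 2037 to 5270 bp of exons and the receptors 8061 to 14232 bp, and all genes tested in these length ranges had median log2 fold changes of -0.08 (7907 genes) and 0.26 (2197 genes). After removal of the length trend in every library, Hes1 had a log2 fold change of 0.21 (95% confidence interval -0.07 to 0.49, edgeR adjusted p = 0.337), Hey1 0.09, Hey2 -0.15, Heyl -0.09 and Nrarp 0.23, and Notch1, Notch3 and Notch4 had 0.59, 0.72 and 0.59. On these values, 8 of the 20 ratios were lower with no overlap, which were 3 of 5 targets against Notch1, 4 of 5 against Notch3, 1 of 5 against Notch4 and 0 of 5 against Notch2, where 55.6%, 59%, 41.4% and 5.72% of all genes were so. Heyl was among them for Notch1, Notch3 and Notch4, and Hes1 for Notch1 and Notch3, and the ratio of Hes1 to Notch1 differed by -0.36 (exact permutation test, p = 0.0571). After this removal the intervals of Hes1 and Hey1 overlapped those of Notch1, Notch3 and Notch4, and those of Hey2 and Heyl overlapped that of Notch4.

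**Figure D4:**
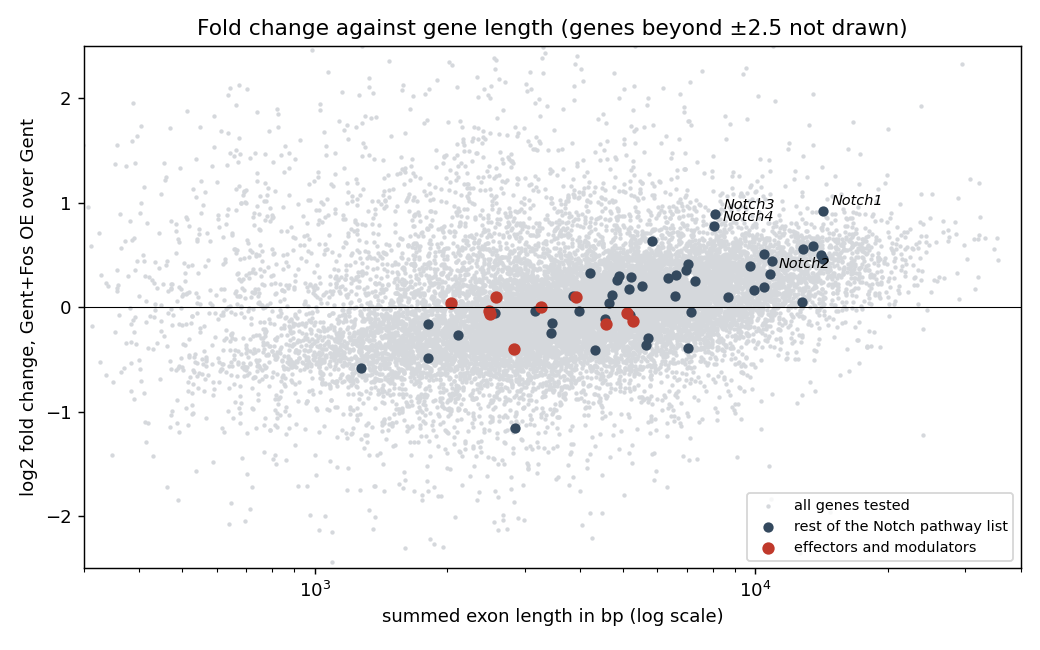
Log2 fold change (Gent+Fos OE over Gent) against summed exon length on a log axis for all 17155 genes tested (grey), 48 other Notch pathway genes (dark) and the 10 effectors and modulators (red). Longer genes sit higher, and the members lie between 2037 and 5270 bp with values from -0.40, for Mfng, to 0.10, for Nrarp.

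Of 51 other Notch pathway genes, 48 were tested and 0 were called by edgeR. At an unadjusted p under 0.05, 10 of the 48 were higher and 5 lower, against 11.1% and 13.4% of all genes, and 12 and 5 had groups that did not overlap, against 11.3% and 12.2%. By role, the higher ones were 3 of 4 receptors, 2 of 7 ligands, 0 of 9 secretase and sheddase genes, 4 of 13 genes of the nuclear complex and 1 of 13 other modulators. These roles differ in length. The 4 of the nuclear complex have 10486 to 14089 bp of exons, and the secretase and sheddase genes have 1275 to 7154 bp. All genes tested at 8061 to 14232 bp had a median log2 fold change of 0.26, and the part of length in these counts was not tested. The pathway genes with the lowest p beside the 3 receptors were Crebbp, Jag1 and Psen2. Crebbp, a histone acetyltransferase that works as a co-activator, had 72.7 to 93.1 CPM in Gent+Fos OE and 46.8 to 65.4 CPM in Gent (log2 fold change 0.59, edgeR adjusted p = 0.0834). Jag1, the ligand of the prosensory domain, had 89.1 to 112 CPM and 44.6 to 78.2 CPM (log2 fold change 0.63, edgeR adjusted p = 0.109). Psen2, a catalytic subunit of the secretase, had 30.1 to 35.6 CPM and 39.4 to 51.2 CPM (log2 fold change -0.41, edgeR adjusted p = 0.121). Rbpj itself, named for its role after its value was seen, had a log2 fold change of 0.05 (edgeR adjusted p = 0.889). The other genes of the Hes family, looked at after their values were seen, included Hes5, a Notch effector of supporting cells, which had 4, 4, 4 and 0 counts in Gent+Fos OE and 14, 5 and 5 counts in Gent and was too low to be tested. Hes6, which promotes rather than blocks differentiation, had 18.7 to 22.4 CPM in Gent+Fos OE and 23.2 to 36.5 CPM in Gent (log2 fold change -0.49, edgeR adjusted p = 0.134).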

How the data were processed

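RNA was measured in 7 libraries, 4 Gent+Fos OE and 3 Gent, grouped by their labels. The authors deposited whole read counts per gene, not normalized. Per the file headers these were made by featureCounts 2.0.6 with an mm10 annotation, without strand, with the reads of a pair counted separately and reads hitting several genes left out. The submitters' processing notes name Trim Galore 0.6.10, HISAT2 2.2.1 and mm10, whereas the methods name mm39, the same HISAT2 version, other versions of Trim Galore and featureCounts, and 3 replicates per condition. Symbols came from GENCODE vM39 by gene ID (31674 of 32285 IDs), and coordinates from the files.

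Differences were tested with edgeR 4.0.16 in R 4.3.3 (filterByExpr, TMM, quasi-likelihood F-test, Benjamini-Hochberg adjustment), with limma 3.58.1 and DESeq2 1.42.0 as alternatives. A call needed an adjusted p under 0.01 with a log2 fold change beyond 0.25 in either direction. Log2 CPM used a prior count of 2. Confidence intervals use edgeR's standard errors and degrees of freedom. Permutation tests were two-sided. Depths were 27879889 to 34335214 counts, and libraries of 1 group differed by more than counting noise (chi-square per degree of freedom 16.8 to 139). Libraries are pools of utricles, so p-values measure the spread between pools. Scripts were tested on simulated data. There edgeR at the limits above called 43 of 100 genes changed by 1 on the log2 scale, and 82 of 100 changed by 2. Python 3.11.15, pandas 2.3.3 and matplotlib 3.10.9 were used for tables and figures.

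The members and lists were chosen with earlier results of these data known. Named genes are the members, Fos, the 4 receptors and the 6 pathway genes with the lowest p (as under 3 had an adjusted p under 0.05), and per marker list the most abundant gene and that with the lowest p where an example was needed. Rbpj, Hes5, Hes6 and the further markers that carry values fall outside this rule and were named after their values were seen. Alternatives were DESeq2 (total of at least 10 counts), limma-voom without and with sample quality weights, upper quartile and RLE normalization, testing genes without a filter or with 10 or more counts in all libraries, removal of each library's length trend (loess, span 0.3), a replicate block, and leaving out each library. For the ratios a prior count of 0.5 was also used. Other Hes and marker lists were summed as CPM. The 9 Schwann cell and glia markers (361 to 410 CPM over the libraries) and 10 mesenchyme markers (7058 to 12650 CPM) had overlapping sums in the groups.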

Additional observations from a re-analysis of the deposited data

Results flagged for a closer look

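In Gent+Fos OE, the group with 4 libraries, replicate 3 stood apart from the other libraries for Hey1, at 56.2 CPM against 43.1 to 45.3 CPM, and for Lfng, at 130.7 CPM against 122.5 to 123.3 CPM. The gap to the nearest library, as a share of the range, passed Dixon's limit for both genes. Among 10 genes looked at, about 1 in 20 is marked by chance. For Lfng the 4 libraries as a whole spanned less than the 3 Gent libraries did.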

How the results depend on the processing

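None of the 10 members was called under any of the 17 alternative settings, in 170 values in all. These settings called between 0% and 5.6% of genes. The log2 fold change of 7 members took the other sign in at least 1 setting, and Hey2, Mfng and Dtx1 stayed below 0 in all. The lowest adjusted p of a member was 0.055, for Hey2 (-0.34) by limma-voom with sample quality weights. Across all genes, the calls (23 higher, 48 lower) were 273 and 327 by DESeq2, 531 and 430 by limma-voom with sample quality weights, 63 and 141 without a filter, and 38 and 74 with length trends removed. Leaving out single libraries gave 2 to 45 higher and 3 to 93 lower, the lowest without Gent+Fos OE replicate 3 and the highest without Gent replicate 2. Counts of 13 target to receptor ratios became 8 with length trends removed and 13 to 20 with single libraries left out, 20 without Gent replicate 1. Replicate numbers did not pair the libraries (correlations of deviations 0.064, -0.038 and 0.032, and not every library correlated best with its own number). With the replicate block edgeR called 0 genes higher and 0 lower (1697 and 1703 at an unadjusted p under 0.05), and with block and length trends removed 18 and 31. The cause of these shifts was not tested. Nrarp and Dtx1 had the lowest levels of the members, at 2.06 to 3.26 CPM.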
